A study of Mus musculus with 2 samples.

Results

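The organic ion transporters of the Slc22a, Slco and Slc47a families and the ATP-binding cassette (ABC) transporters of the Abca, Abcb, Abcc and Abcg families were examined in livers lacking Lpcat3 in hepatocytes. Members were all genes whose symbol in the array's annotation begins with one of these 7 family names, which gave 131 probe sets for 75 genes, of 18193 genes on the array. The genotype of the L-Lpcat3 KO mice was Lpcat3fl/fl Albumin-Cre, and that of the control mice was Lpcat3fl/fl. Both groups carry the floxed Lpcat3 alleles, and only the L-Lpcat3 KO mice carry Albumin-Cre, whose albumin promoter is active in hepatocytes. Cells that do not express Albumin-Cre, such as Kupffer and endothelial cells, likely keep Lpcat3, but no cell type was measured apart here. All mice were males 16 weeks old that had been switched to western diet when 7 weeks old and had eaten it for 9 weeks, and livers were taken after a 6 hr fast. RNA of 5 mice was pooled per genotype and measured on 1 Affymetrix array, so each value below is that of a pool. There is no replicate check of any difference between the genotypes, and no p-value can be given.

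Slc22a, Slco and Slc47a proteins carry organic anions, cations and zwitterions across the plasma membrane without using ATP themselves, whereas ABC transporters use ATP to move their substrates. In hepatocytes, uptake carriers on the sinusoidal membrane take bile acids, hormones and drugs out of the blood, and ABC pumps on the canalicular membrane send bile acids, phospholipid, sterol and conjugates into bile. A further set of ABC pumps on the sinusoidal side returns conjugates to the blood. Lpcat3 itself is an enzyme that places polyunsaturated fatty acids into phospholipids.

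Values are signal intensities in arbitrary units, scaled by the authors so that both arrays had the same trimmed mean. Signals below 86.6, the median of all values, were raised to that floor before L-Lpcat3 KO was divided by control and the log2 taken. The probe set with the highest mean signal stood for its gene, a gene was counted as measured when it reached the floor in at least 1 pool, and a gene was called when its pools differed at least 2-fold. With 1 pool under the floor, a ratio is only a bound. The SD of log2 ratios between probe sets of the same gene was 0.29 over 4476 genes and 0.35 over 16 member genes. Only probe sets at or over the floor in both pools entered it. It describes disagreement between probe sets within this pair of arrays and holds no spread between mice. Lpcat3 had a signal of 2198 in the L-Lpcat3 KO pool and 5173 in the control pool, a log2 ratio of -1.23. Hepatocyte markers were present on both arrays, with 10 of 12 listed genes matched and log2 ratios between -0.43 and 0.37, and none was called. Their summed signal was 228549 in the L-Lpcat3 KO pool and 247694 in the control pool.

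The promoter windows of 2 neighbouring uptake genes that differed in opposite directions, and the stretch shared by the promoter windows of Abcg5 and Abcg8, are shown because the values of these genes are set beside each other below. They come from RefSeq (GRCm38.p6), in which 62 of the 75 members had a promoter entry of 300 bases, 250 before and 50 after the start of the gene. Capitals mark matches to the letters AGGTCA, the core letters bound by many nuclear receptors, on either strand. Slco1a1 lies on the minus strand at chr6:141946913-141947212 and Slco1a4 on the minus strand at chr6:141856171-141856470. The shared stretch of Abcg5 and Abcg8 is given on the plus strand at chr17:84682962-84683170.
Slco1a1: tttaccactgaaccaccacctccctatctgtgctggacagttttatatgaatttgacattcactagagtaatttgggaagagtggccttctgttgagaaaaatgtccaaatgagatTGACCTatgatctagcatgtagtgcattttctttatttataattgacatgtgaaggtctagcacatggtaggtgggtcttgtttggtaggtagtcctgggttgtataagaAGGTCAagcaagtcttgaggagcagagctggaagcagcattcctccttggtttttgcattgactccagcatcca
Slco1a4: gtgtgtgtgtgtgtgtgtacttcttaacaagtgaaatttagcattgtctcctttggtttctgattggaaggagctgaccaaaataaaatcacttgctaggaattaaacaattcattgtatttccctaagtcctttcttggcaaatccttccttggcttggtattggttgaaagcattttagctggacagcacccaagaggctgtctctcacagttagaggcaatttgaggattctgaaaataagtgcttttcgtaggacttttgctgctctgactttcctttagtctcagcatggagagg
Abcg5 and Abcg8: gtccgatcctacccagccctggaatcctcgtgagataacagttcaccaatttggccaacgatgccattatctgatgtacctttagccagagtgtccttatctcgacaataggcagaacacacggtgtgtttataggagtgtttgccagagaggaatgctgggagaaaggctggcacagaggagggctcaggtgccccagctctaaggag
The Slco1a1 window held 2 matches to AGGTCA, which do not overlap, and the other windows shown held none. AGGTCA occurred in 16.3% of 32851 promoter windows of the same length and in 11 of 48 windows of measured members. None of the windows shown matched TTCNNNGAA (STAT5 and BCL6, 8.30% of all windows), GTTAAT (core letters of HNF1 sites, 7.10%) or TGACNNNGC (Nrf2, 12.4%), all searched on both strands. A match describes the letters only.

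Among the 75 members, 51 were measured, 48 of them in both pools, and 24 lay below the floor in both pools with signals between 3.04 and 81.7. Of the measured members, 1 was at least 2-fold higher in the L-Lpcat3 KO pool, where 2.7% of all 12290 measured genes were, and 3 were at least 2-fold lower, where 0.7% of all genes were. The gene called higher was Abcc4, and those called lower were Slc22a7, Slco1a1 and Abca2. At 1.5-fold, 9 members were higher, against a background of 9.07% of all genes, and 6 were lower, against 3.83%. These are 17.6% and 11.8% of the measured members, and nothing particular to the families is read from such small counts. The remaining 36 members lay within 1.5-fold. The median log2 ratio was 0.06 over the members and 0.01 over all measured genes. Over the 48 members at or over the floor in both pools, 1 was called higher and 2 lower. Of all 10973 genes at or over the floor in both pools, 269 were called higher and 72 lower.

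**Figure D1:**
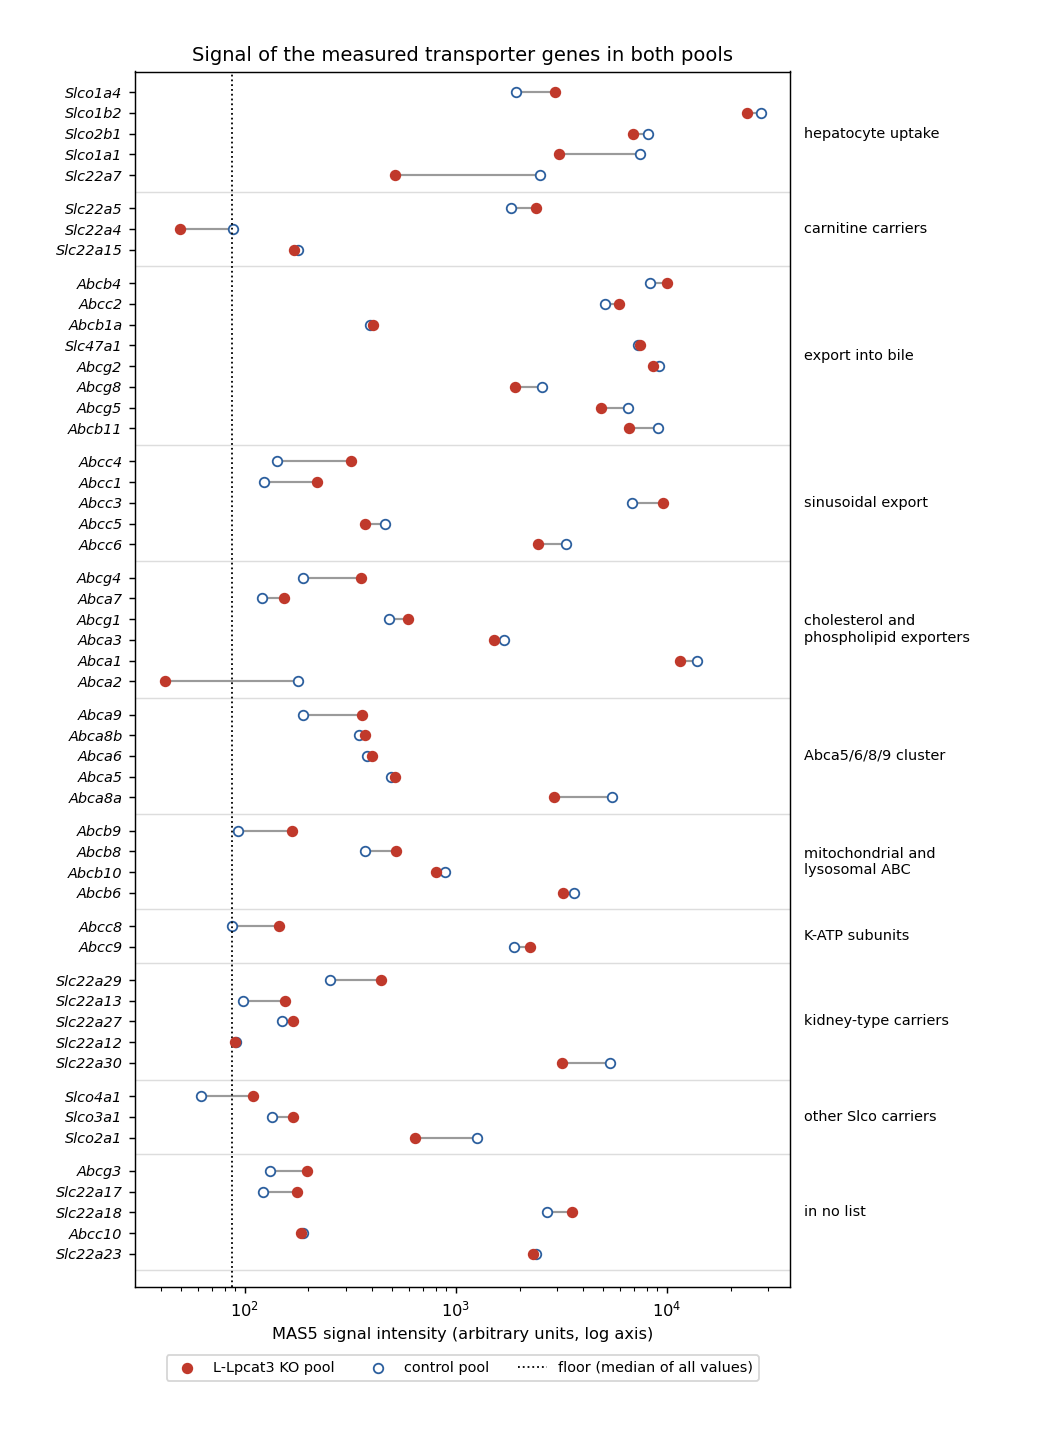
Signal intensity (arbitrary units, log axis) of the 51 measured transporter genes in the L-Lpcat3 KO pool (filled) and the control pool (open), grouped by role, with the floor of 86.6 as a dotted line. Slc22a7 has the widest gap among the uptake carriers, 511 in the L-Lpcat3 KO pool and 2510 in the control pool. For each of the 8 exporters into bile, the points of both pools lie close together.

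Uptake carriers of the sinusoidal membrane held both of the called members with signals well over the floor in each pool. Slc22a7, organic anion transporter 2, had a signal of 511 in the L-Lpcat3 KO pool and 2510 in the control pool. It was 4.91-fold lower, a log2 ratio of -2.30, and only 3 of the 12290 measured genes had a lower ratio. It had 1 measured probe set, so no other probe set bears on this value.

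Slco1a1 takes up bile acids and steroid conjugates and is known in mouse liver as a male-predominant gene. Its signal was 3086 in the L-Lpcat3 KO pool and 7479 in the control pool, 2.42-fold lower. A further probe set gave 849 in the L-Lpcat3 KO pool and 3316 in the control pool, so both probe sets were lower in L-Lpcat3 KO livers, with log2 ratios of -1.28 and -1.97. Slco1a4, a related carrier that is female-predominant in mouse liver, read 2962 in the L-Lpcat3 KO pool and 1926 in the control pool. Its log2 ratio of 0.62 passed 1.5-fold but not the 2-fold call.

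The other uptake carriers differed little. Slco1b2, which takes up bilirubin, bile acids and drugs, had a signal of 23848.5 in the L-Lpcat3 KO pool and 27773 in the control pool, and its 3 measured probe sets lay between -0.22 and 0.13. Slco2b1, a carrier of steroid sulphates, had 6882 in the L-Lpcat3 KO pool and 8171 in the control pool, and its 3 measured probe sets lay between -0.25 and 0.05, the last being a bound. The median log2 ratio of the 5 measured uptake carriers was -0.25, with 2 called lower and 0 higher. The hepatocyte markers above stayed within 1.5-fold beside these genes. In bulk liver RNA, fewer cells of a type and less RNA per cell cannot be told apart.

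**Figure D2:**
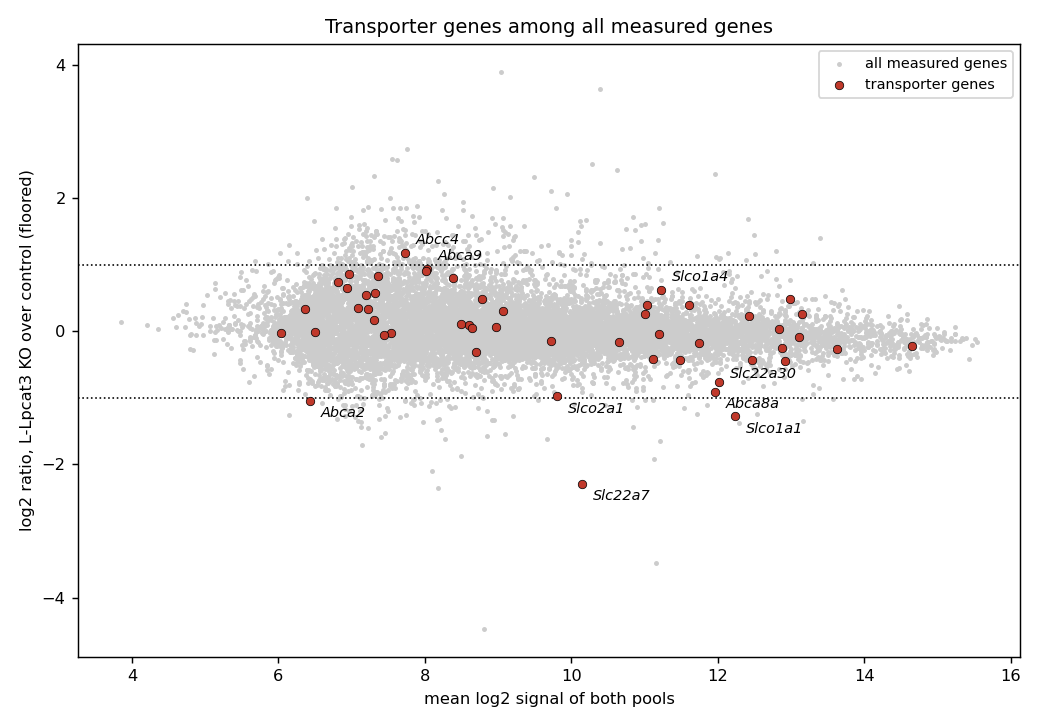
Log2 ratio (L-Lpcat3 KO pool over control pool) against the mean log2 signal of both pools for all 12290 measured genes (grey) and the 51 measured transporter genes (red), with dotted lines at 2-fold. Slc22a7 at -2.30 and Slco1a1 at -1.28 lie below the lower line at high signal, while Abcc4 at 1.17 lies above the upper line at low signal.

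Carnitine and zwitterion carriers held no called member. Slc22a5, the main plasma membrane carrier of carnitine, had a signal of 2391 in the L-Lpcat3 KO pool and 1821 in the control pool, a log2 ratio of 0.39, but a further probe set gave -0.07. Slc22a15 read 171 in the L-Lpcat3 KO pool and 178 in the control pool, a log2 ratio of -0.06, while its further probe set read 88.1 in the L-Lpcat3 KO pool and 134 in the control pool, a log2 ratio of -0.60. Slc22a4, a carrier of ergothioneine, was below the floor at 49.1 in the L-Lpcat3 KO pool and near it at 87.7 in the control pool. The probe sets of Slc22a5 thus differed in sign, and Slc22a16 and Slc22a21 were below the floor in both pools.

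Exporters into bile were measured for all 8 genes of the list, and none passed even 1.5-fold, with a median log2 ratio of -0.03. The bile salt export pump Abcb11 had a signal of 6619 in the L-Lpcat3 KO pool and 9036 in the control pool, a log2 ratio of -0.45. Abcg5 and Abcg8 form a heterodimer that exports sterols. Abcg5 read 4863 in the L-Lpcat3 KO pool and 6547 in the control pool, and Abcg8 read 1912 in the L-Lpcat3 KO pool and 2550 in the control pool. Their log2 ratios of -0.43 and -0.42 were close to each other. These genes lie head to head with starts 110 bases apart, and the windows around these starts share the 209 bases printed above. Abcg8 has a further promoter window, at chr17:84676052-84676351, which shares 0 bases with the Abcg5 window.

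The remaining exporters into bile were higher in the L-Lpcat3 KO pool or nearly equal. Abcb4, which moves phosphatidylcholine to the outer leaflet of the canalicular membrane, had 9976 in the L-Lpcat3 KO pool and 8309 in the control pool (log2 ratio 0.26). Abcc2, the pump of conjugated bilirubin, had 5950 in the L-Lpcat3 KO pool and 5084 in the control pool (0.23). The phospholipid and bilirubin pumps had ratios of opposite sign to the bile salt and sterol pumps, all within 1.5-fold. Each of these genes had 1 probe set, and the ratios of Abcb4 and Abcc2 were smaller than the SD of 0.29 between probe sets. Abcg2, Slc47a1, which expels organic cations, and Abcb1a had log2 ratios of -0.09, 0.03 and 0.05. A further probe set of Abcb1a gave -0.16.

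Sinusoidal exporters included the only member called higher. Abcc4, which exports cyclic nucleotides and bile acids, had a signal of 318 in the L-Lpcat3 KO pool and 141 in the control pool, 2.25-fold higher. Both values are over the floor but low, and 1 probe set was measured. Abcc1, a pump of glutathione conjugates, read 219 in the L-Lpcat3 KO pool and 123 in the control pool, a log2 ratio of 0.84, and Abcc3, which returns glucuronides to the blood, read 9573 in the L-Lpcat3 KO pool and 6832 in the control pool, a log2 ratio of 0.49.

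Abcc6, whose loss causes ectopic calcification, was in the opposite direction, at 2455 in the L-Lpcat3 KO pool and 3311 in the control pool (log2 ratio -0.43). The probe sets of Abcc5, an exporter of cyclic nucleotides, disagreed. The one of highest signal gave 372 in the L-Lpcat3 KO pool and 461 in the control pool, a log2 ratio of -0.31, while the other measured ones gave 0.97 and at least 1.06. The direction of Abcc5 is thus not settled by these arrays. The 5 measured sinusoidal exporters had a median log2 ratio of 0.49, Abcb1b was below the floor in both pools, and Slc22a3 was not analysed here.

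**Figure D3:**
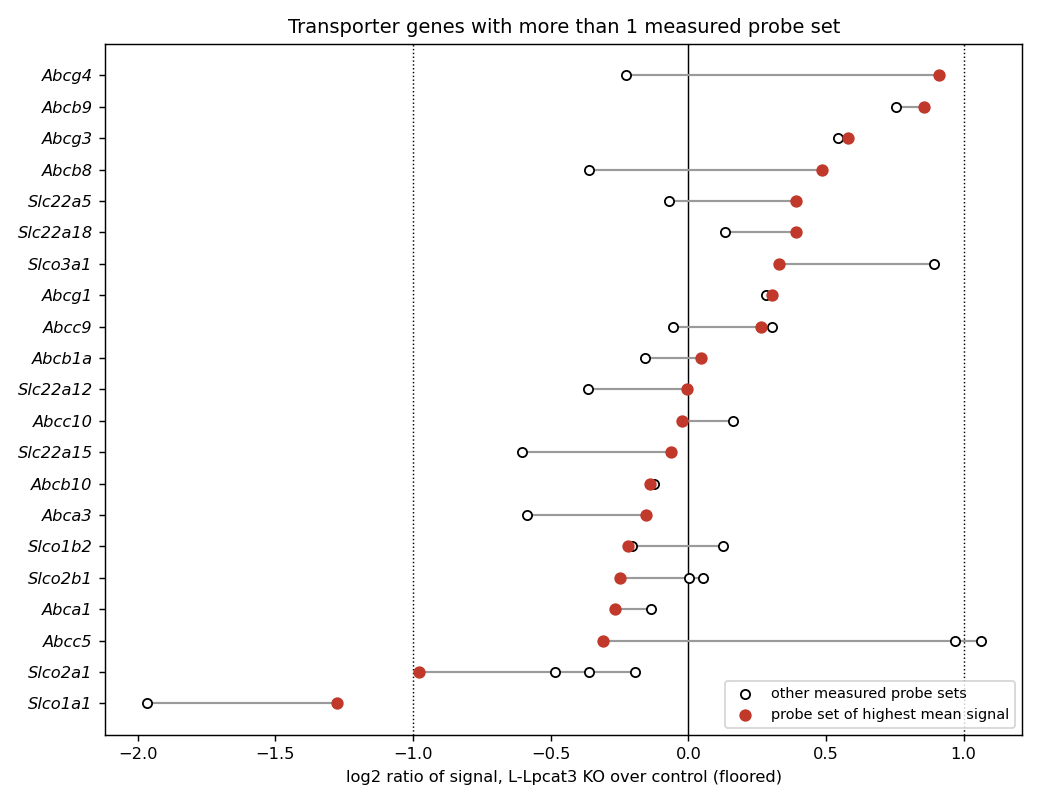
Log2 ratio (L-Lpcat3 KO pool over control pool) for every measured probe set of the 21 transporter genes with more than 1, with the probe set of highest mean signal filled and dotted lines at 2-fold. In 12 genes all probe sets have the same sign, Slco1a1 and Slco2a1 among them, and in 9 genes, Abcc5 among them, they do not.

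Cholesterol and phospholipid exporters had a median log2 ratio of 0.07 over 6 measured genes. Abca1, which loads cholesterol and phospholipid onto apolipoprotein A-I, had a signal of 11566 in the L-Lpcat3 KO pool and 13908 in the control pool, a log2 ratio of -0.27, and its other measured probe set gave -0.14. Abcg1, which exports cholesterol to high density lipoprotein, had 594 in the L-Lpcat3 KO pool and 481 in the control pool, and its probe sets gave log2 ratios of 0.30 and 0.28. Abca2, an endosomal and lysosomal transporter, was below the floor at 41.8 in the L-Lpcat3 KO pool and read 179 in the control pool, at least 2.06-fold lower. Its call rests on 1 probe set of low signal.

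Other genes of this list were not called. Abcg4 read 355 in the L-Lpcat3 KO pool and 189 in the control pool (log2 ratio 0.91), but its other probe set, below the floor in the L-Lpcat3 KO pool, gave a bound of -0.23. Abca3, known for packing surfactant phospholipid in the lung, had 1518 in the L-Lpcat3 KO pool and 1690 in the control pool, a log2 ratio of -0.15, while its other measured probe set read 305 in the L-Lpcat3 KO pool and 458 in the control pool, a log2 ratio of -0.59. Abca7, a phospholipid transporter, had 153 in the L-Lpcat3 KO pool and 120 in the control pool. Abca1, Abcg1, Abcg5 and Abcg8 are classical targets of the liver X receptor (LXR), a sterol-sensing nuclear receptor, and their log2 ratios of -0.27, 0.30, -0.43 and -0.42 were all within 1.5-fold. Among 7 other LXR targets, 1 was called higher (Pltp) and 1 lower (Lpcat3, the deleted gene), with a median of -0.03.

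The cluster of Abca5, Abca6, Abca8a, Abca8b and Abca9 held neighbours of opposite direction. Abca8a had a signal of 2918 in the L-Lpcat3 KO pool and 5489 in the control pool, 1.88-fold lower, and Abca9, the gene next to it, had 360 in the L-Lpcat3 KO pool and 188 in the control pool, 1.91-fold higher. Neither reached the 2-fold call. The Abca9 value rests on 1 measured probe set of low signal. Its other probe set was below the floor in both pools, at 73.8 in the L-Lpcat3 KO pool and 68.6 in the control pool. Abca5, Abca6 and Abca8b had log2 ratios between 0.06 and 0.11.

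On chromosome 6 the order is Slco1c1, Slco1b2, Slco1a4, Slco1a1, Slco1a6 and Slco1a5, so that Slco1a4 at 0.62 and Slco1a1 at -1.28 are adjacent members. On chromosome 19 Slc22a29 at 0.80 and Slc22a30 at -0.76 are adjacent. Slc22a29 was read only by a probe set that can match near-identical paralogs, so its value is uncertain.

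**Figure D4:**
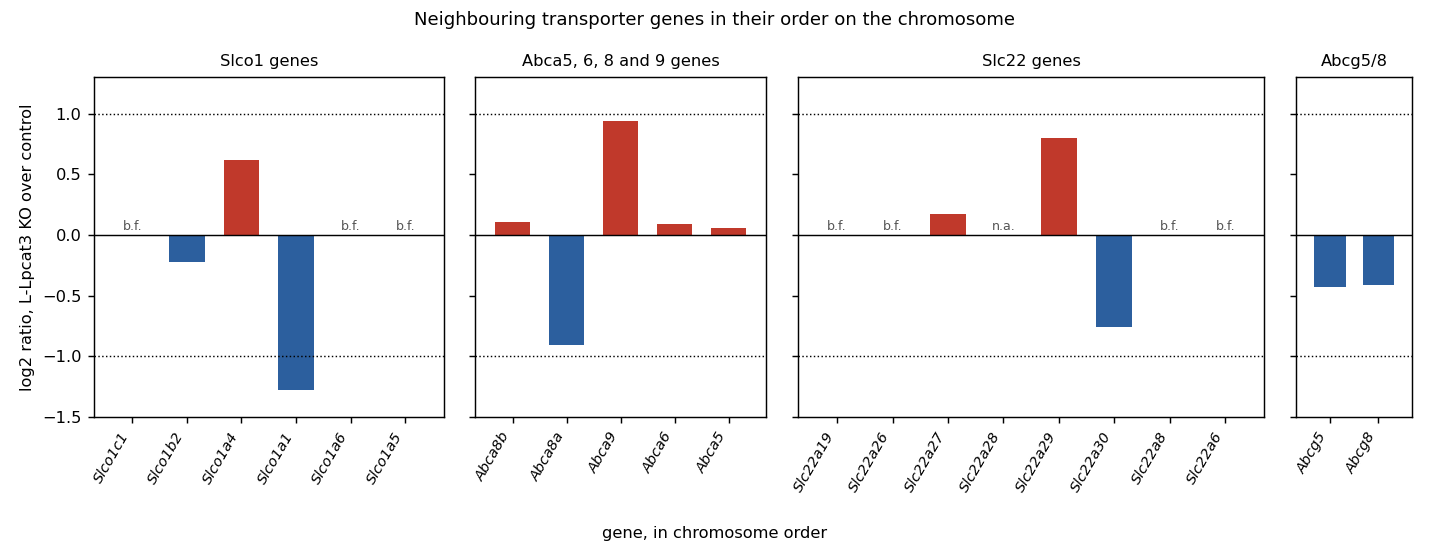
Log2 ratio (L-Lpcat3 KO pool over control pool) of neighbouring transporter genes, in chromosome order along each panel (b.f., below the floor in both pools; n.a., not analysed here), with dotted lines at 2-fold. Slco1a4 and Slco1a1, Abca8a and Abca9, and Slc22a29 and Slc22a30 are adjacent bars of opposite sign, whereas Abcg5 and Abcg8 are nearly equal.

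Carriers known mainly from kidney were mostly at background, with 8 of 13 matched genes below the floor in both pools, among them Slc22a6 and Slc22a8, the main renal organic anion carriers. Slc22a30 was an exception, with 3189 in the L-Lpcat3 KO pool and 5397 in the control pool, 1.69-fold lower. Slc22a13 read 154 in the L-Lpcat3 KO pool and 98.0 in the control pool, and Slc22a29 read 440 in the L-Lpcat3 KO pool and 252 in the control pool. Slc22a12, the renal urate carrier, gave a log2 ratio of -0.01, and a further probe set, below the floor in the L-Lpcat3 KO pool, gave a bound of -0.36. Slc22a27 had 0.17, and like Slc22a29 it was read only by a probe set that can match near-identical paralogs.

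Of the remaining Slco carriers, Slco2a1, the prostaglandin transporter, had a signal of 638 in the L-Lpcat3 KO pool and 1254.5 in the control pool, a log2 ratio of -0.98, just short of the call. All 4 of its measured probe sets were below 0, at -0.19 to -0.98, and 2 of them were under the floor in the L-Lpcat3 KO pool. Slco2a1 is known from endothelium. Of 10 endothelial markers, 3 were called higher and 0 lower, only 4 were at least 1.5-fold higher, and the median log2 ratio was 0.45. Their summed signal was 8902 in the L-Lpcat3 KO pool and 6738 in the control pool. The part of endothelial cells in the Slco2a1 value was not tested. The probe sets of Slco3a1 gave log2 ratios of 0.33 and at least 0.89, and Slco4a1 read 109 in the L-Lpcat3 KO pool and was below the floor at 61.9 in the control pool.

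None of the 4 measured genes in the list of mitochondrial, lysosomal and peptide ABC transporters was called, a list that does not hold Abca2. Abcb6 had 3226 in the L-Lpcat3 KO pool and 3630 in the control pool, and Abcb10, which acts in the inner mitochondrial membrane, had 806 in the L-Lpcat3 KO pool and 886 in the control pool, and its measured probe sets gave -0.14 and -0.12 on the log2 scale. Abcb9, a lysosomal peptide transporter, read 168 in the L-Lpcat3 KO pool and 92.7 in the control pool, and both of its probe sets were above 0.75. Abcb8, a mitochondrial transporter, had a log2 ratio of 0.49 on one probe set and -0.36 on the other. The sulphonylurea receptors Abcc8 and Abcc9, regulatory subunits of potassium channels gated by ATP, had 0.74 and 0.27, and the 3 probe sets of Abcc9 lay between -0.06 and 0.30. The Abcc8 signal in the control pool, 86.7, lay at the floor.

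Of the members outside these lists, 5 were measured and none was called. Slc22a18, an imprinted gene, read 3556 in the L-Lpcat3 KO pool and 2714 in the control pool, and its probe sets gave log2 ratios of 0.39 and 0.13. Slc22a23 read 2315 in the L-Lpcat3 KO pool and 2390 in the control pool. Abcg3, Slc22a17 and Abcc10 had log2 ratios of 0.58, 0.55 and -0.02, and their signals ran between 121 and 196. The further probe sets of Abcg3 and Abcc10 gave at least 0.54 and at least 0.16, both below the floor in the control pool.

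The signs of the member ratios were counted apart for members of high and low signal. Of 23 members with a mean signal of 1000 or more, 15 were below 0 and 8 above, with a median log2 ratio of -0.17, and of 28 with a lower signal, 20 were above 0 and 8 below, with a median of 0.32. All measured genes showed the same signs in smaller size, with medians of -0.04 over 4258 genes and 0.05 over 8032 genes. Of the 4258 genes 57.0% were below 0, beside 65.2% of the 23 members. Of the 8032 genes 55.6% were above 0, beside 71.4% of the 28 members. Nothing particular to the families is read from these small counts. Macrophage markers were higher in the same comparison, with 8 of 13 measured genes called, 0 lower and Itgam below the floor in both pools, and a summed signal of 34151 in the L-Lpcat3 KO pool and 15174 in the control pool. Stellate cell and fibroblast markers had 3 of 10 called higher, with a summed signal of 26890 in the L-Lpcat3 KO pool and 18002 in the control pool. All 5 B cell markers were called higher, with a summed signal of 4537 in the L-Lpcat3 KO pool and 898 in the control pool. Of these, Cd79a, Cd79b and Ms4a1 were below the floor in the control pool, so their ratios are bounds. Both measured adipocyte markers, Adipoq and Retn, were below the floor in the control pool and called higher, while Lep was below it in both pools. Of 5 matched bile duct markers, Krt19, Krt7 and Cftr were below the floor in both pools. Epcam read 136 in the L-Lpcat3 KO pool and 145 in the control pool, and Sox9 was below the floor at 79.9 in the L-Lpcat3 KO pool and read 94.2 in the control pool. The part of these cells in the values of the low-signal members was not tested.

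Genes that handle the same substrates or control the transporters were listed for comparison. Of 7 measured carriers outside the families none was called, and Slc10a1, the main sinusoidal carrier of bile acids, read 17747 in the L-Lpcat3 KO pool and 23343 in the control pool (log2 ratio -0.40). Of 14 regulators, 1 was called, the repressor Bcl6, at 464 in the L-Lpcat3 KO pool and 1420 in the control pool (-1.61). Stat5b, which carries the growth hormone signal, had 777 in the L-Lpcat3 KO pool and 1190 in the control pool (-0.62). The nuclear receptors Nr1h4, Nr1i2, Nr1i3 and Nr1h3 lay between -0.32 and 0.24.

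Target lists of these regulators differed among themselves. Of 6 targets of the drug-sensing receptors CAR and PXR none was called (median -0.02), and 2 were at least 1.5-fold lower. Of 8 targets of Nrf2, a factor of the oxidant response, 2 were called higher, Gstm3 and Hmox1. The 8 log2 ratios ran from -0.14 to 1.40 (median 0.43), with 3 at least 1.5-fold higher. Nfe2l2, the gene of Nrf2, had a log2 ratio of 0.14. The exporters Abcc1, Abcc2, Abcc3 and Abcc4, known Nrf2 targets, had log2 ratios of 0.84, 0.23, 0.49 and 1.17. The part of Nrf2 or of any other regulator in these values was not tested. Of 10 male-predominant liver genes other than members, 4 were called lower (median -0.72), and of 6 female-predominant genes, 1 was called higher and 1 lower (median 0.14), beside -1.28 for Slco1a1 and 0.62 for Slco1a4.

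**Figure D5:**
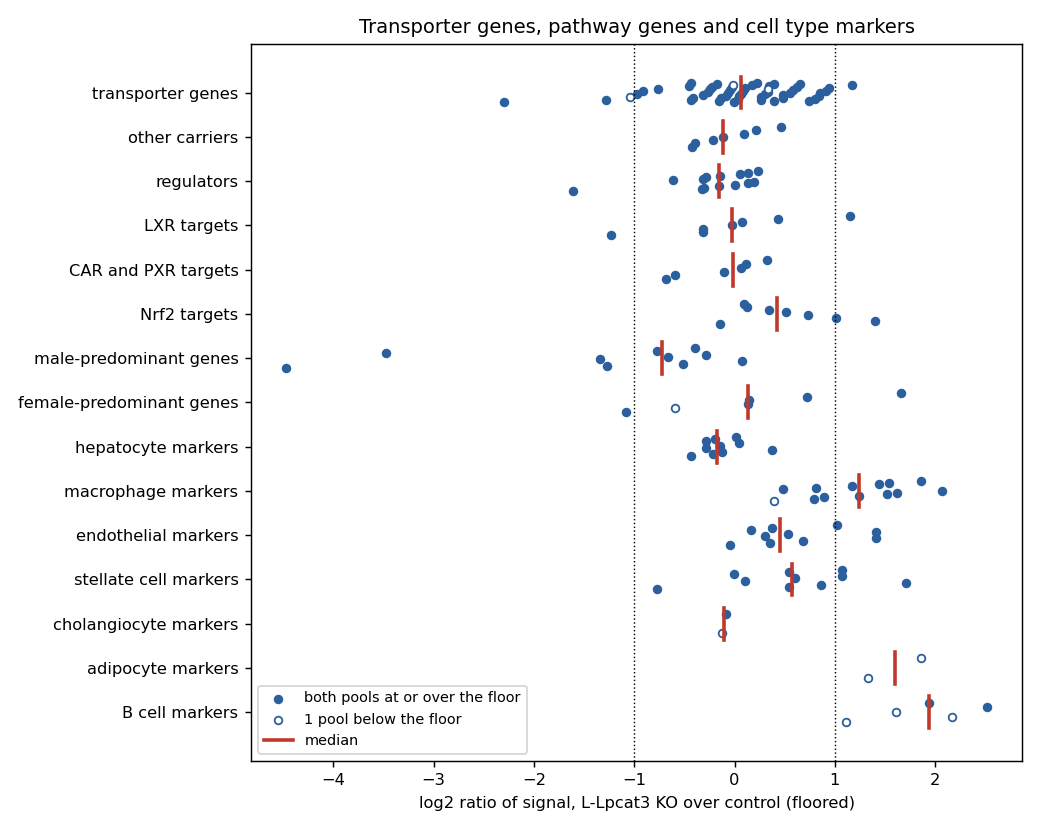
Log2 ratio (L-Lpcat3 KO pool over control pool) for the transporter genes, the pathway lists and the cell type markers, 1 point per measured gene, open where 1 pool lay below the floor, with medians in red and dotted lines at 2-fold. The transporter median of 0.06 lies between hepatocyte markers at -0.17 and macrophage markers at 1.24.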

How the data were processed

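RNA of L-Lpcat3 KO and control livers, 5 mice pooled per genotype, was hybridized to 1 Affymetrix mouse genome array each. The authors made the deposited values with MAS5, and they are signal intensities on a linear scale. The MAS5 version was not given in the sources used here. Both arrays had a trimmed mean of 500.0. Genes were assigned from the platform annotation, and symbols were brought up to date with RefSeq GRCm38.p6. Of 45101 probe sets, 34958 carried 1 symbol, 932 carried several and were not used for genes, and 9211 carried none.

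Values under the median of all values (86.6) were raised to it, the probe set with the highest mean log2 signal stood for each gene, and a 2-fold difference was called. With 1 array per genotype no test was made, and the number of arrays limits the precision. The members and lists were chosen with earlier results of these data known. The rule for naming took Lpcat3, every called member and, in each role list, up to 4 further measured members of largest ratio and the member of highest mean signal. The remaining members were added after their values were seen. The calling step was tested on simulated data, with changes placed only in genes of higher signal, over the floor in both pools. The simulated noise was smaller than the SD between probe sets given above. Calls at low signal, such as Abcc4 and Abca2, were not covered by it. Alternatives were median centring, quantile normalization, loess, floors at the 25th or 75th percentile or none, a pseudocount of 50, averaging the probe sets of a gene, dropping probe sets shared by several transcripts, and thresholds of 1.5-fold and 3-fold. The software was matplotlib 3.10.9, statsmodels 0.14.6, scipy 1.17.1, pandas 2.3.3, numpy 2.4.6 and Python 3.11.15.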

Additional observations from a re-analysis of the deposited data

Results flagged for a closer look

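A probe set annotated to both Slc22a30 and Slc22a29 entered none of the comparisons, since its signal cannot be assigned to either gene. It read 396.2 in the L-Lpcat3 KO pool and 286 in the control pool, a log2 ratio of 0.47, while the probe sets of the single genes gave -0.76 for Slc22a30 and 0.80 for Slc22a29.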

How the results depend on the processing

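No paired analysis was possible because each genotype had 1 pooled array. The count of members called higher, 1 as reported, was 9 at 1.5-fold, 0 at 3-fold, 3 with the floor at the 25th percentile (Slc22a6 and Abcc12 added), 0 with the floor at the 75th percentile and 0 with a pseudocount of 50, where Abcc4 had a log2 ratio of 0.94. The count called lower, 3 as reported, was 6 at 1.5-fold, 1 at 3-fold, 4 with the floor at the 25th percentile (Slco1a5 added), 2 with the floor at the 75th percentile and 5 with median centring, which added Abca8a at -1.03 and Slco2a1 at -1.09 and moved the median of all measured genes to -0.10. The shares over all measured genes moved too. With no floor, 5.32% of all genes were called higher and 1.97% lower, while the member counts stayed at 1 and 3. With the floor at the 25th percentile, 66 members were measured, and 7.02% of all genes were called higher and 2.97% lower. With the floor at the 75th percentile, 31 members were measured, and these shares were 1.18% and 0.34%. They were 1.92% and 1.04% with median centring, 2.66% and 0.76% with the pseudocount, and 9.07% and 3.83% at 1.5-fold. Slc22a7 and Slco1a1 passed 2-fold under all 9 alternatives other than the thresholds. Abca2 and Abcc4 were not measured with the floor at the 75th percentile. The median of the members lay between -0.14 and 0.07. Of 39 members named by rule, 34 kept their sign. Abca6 and Abca8b lost it under median centring, Abcc5 was 0.57 with the mean of probe sets, and Abcc9 and Slco2b1 were -0.06 and 0.00 without probe sets that can match several transcripts. Members of low signal are limited by their closeness to the floor.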
